A study of Mus musculus with 8 samples.

Results

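Imprinted genes are transcribed mainly from the copy inherited from one parent. Chromatin accessibility at 34 of them was described in 4 ATAC-seq peak lists, each the deposited list of 1 group of mouse cells. ATAC-seq uses a transposase to cut open chromatin, and a peak is a stretch where such cuts accumulate. The members were named genes, and each was matched to 1 gene of the GENCODE mouse release 21 annotation (55413 genes) on mm10, the GRCm38 build. A peak was counted at a gene when it touched the gene body or the 20 kb on either side. This gave 120 of 56514 peaks in mouse embryonic fibroblasts (MEF), 60 of 36219 at day 5 of reprogramming, 66 of 35226 at day 10, and 93 of 48486 in embryonic stem cells (ESC). Peaks separated by 400 bp or less, whatever their list, were joined into regions, and 181 of the 101701 regions lay at the members.

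There were 8 libraries, 2 in each group, all labelled wildtype for the knockout studied elsewhere in the work. The MEF group was untransfected C57BL/6J-OG2 fibroblasts from mice that carry an Oct4-GFP reporter. The OSKM day 5 and OSKM day 10 groups were such MEFs infected with retroviruses for Oct4, Sox2, Klf4 and c-Myc plus a FLAG control vector, and kept in ESC medium with vitamin C. Of the ESC libraries, replicate 1 is labelled C57Bl6J and replicate 2 C57BL/6J-OG2. The labels place ESCs on feeder fibroblasts with LIF, whereas the study's methods describe gelatin and 2i/L medium for the ATAC-seq ESCs, so medium and cell type cannot be told apart. Infected cultures were mixtures of cells at different stages, and in such bulk samples fewer cells of a type and less accessibility per cell cannot be told apart. Since each group has 1 list, no spread between libraries could be computed and no test between groups was made. Presence or absence of a peak is given as listed, and the sequencing depth behind each list is unknown. Defining markers went with the labels in part. A start site of 8 of 8 fibroblast markers lay under a MEF peak and of 4 of 8 under an ESC peak, against 3 and 5 of 8 ESC markers. The ESC markers Nanog, which encodes a core pluripotency factor, Dppa4 and Zfp42 had a start-site peak in the ESC list and in no other. The other ESC markers did not follow this. Esrrb had one in MEF and ESC and Tfcp2l1 in every list. Tdgf1 went the other way, with one in MEF and at day 10 and none in ESC, and Dppa5a and Utf1 had none in any list.

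In genomic imprinting, DNA methylation is laid down differently in egg and sperm at short control elements, the germline differentially methylated regions (DMRs). After fertilisation the mark is kept on one parental copy only, while the other copy stays unmethylated. ZFP57, a zinc finger protein, recognises the methylated hexamer TGCCGC and recruits factors that maintain the mark. At the H19 element the insulator protein CTCF binds the unmethylated maternal copy. ATAC-seq reads in these lists were not split by parental copy, so a peak says that at least some copies were accessible.

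A set of 17 elements stood for germline DMRs known at the member loci. They were picked from textbook knowledge of where each DMR lies, as the region with the most peak bases at the named start site or, for H19 and Meg3, the nearest region upstream. This choice was made with the peak values in view, so the share of them that had peaks supports nothing beyond a description. Sequences of 7 of these elements are printed, on the forward strand of GRCm38, because they hold the recognition letters that the elements share. In the first pair, from the element 3007 bp upstream of H19, capitals mark matches, on either strand, to the CTCF site that recurs in this element. In the others, capitals mark TGCCGC or its reverse complement GCGGCA, and adjoining matches run together. Each of these others is the 140 bp of its element, outside protein-coding exons, with the most matches. Their density of matches is therefore not typical of an element. An element joins the peaks of several lists, and not every printed stretch lay under each list's peak. The Peg13 stretch was under a peak in all 4 lists. The first H19 stretch and those of Airn and Kcnq1ot1 were under the MEF peak alone, and the second H19 stretch under the MEF and day 10 peaks.
H19 upstream, chr7:142580291-142580352: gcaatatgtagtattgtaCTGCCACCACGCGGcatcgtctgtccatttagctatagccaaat
H19 upstream, chr7:142580734-142580807: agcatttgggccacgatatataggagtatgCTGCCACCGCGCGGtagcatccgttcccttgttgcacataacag
H19 upstream, chr7:142581726-142581865: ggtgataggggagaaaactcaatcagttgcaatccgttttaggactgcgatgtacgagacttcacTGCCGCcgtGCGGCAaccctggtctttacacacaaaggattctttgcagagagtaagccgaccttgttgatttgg
Dlk1-Meg3 intergenic, chr12:109528290-109528429: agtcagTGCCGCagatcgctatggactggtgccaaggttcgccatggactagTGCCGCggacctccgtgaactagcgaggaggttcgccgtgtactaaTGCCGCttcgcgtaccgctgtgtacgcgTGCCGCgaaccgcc
Peg3 intron, chr7:6730047-6730186: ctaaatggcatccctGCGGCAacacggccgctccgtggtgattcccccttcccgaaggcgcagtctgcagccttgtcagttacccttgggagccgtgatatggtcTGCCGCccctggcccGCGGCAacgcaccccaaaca
Airn and Igf2r, chr17:12742302-12742441: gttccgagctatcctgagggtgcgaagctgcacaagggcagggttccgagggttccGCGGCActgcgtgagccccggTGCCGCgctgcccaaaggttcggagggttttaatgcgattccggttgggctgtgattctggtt
Kcnq1ot1, chr7:143295676-143295815: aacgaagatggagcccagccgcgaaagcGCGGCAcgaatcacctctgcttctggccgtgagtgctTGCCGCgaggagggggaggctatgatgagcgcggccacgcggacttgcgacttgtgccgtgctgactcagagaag
Peg13, chr15:72809928-72810067: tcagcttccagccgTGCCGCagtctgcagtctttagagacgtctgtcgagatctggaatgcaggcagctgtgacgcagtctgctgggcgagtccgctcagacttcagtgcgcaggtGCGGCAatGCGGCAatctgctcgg
Gnas, Nespas promoter, chr2:174295853-174295992: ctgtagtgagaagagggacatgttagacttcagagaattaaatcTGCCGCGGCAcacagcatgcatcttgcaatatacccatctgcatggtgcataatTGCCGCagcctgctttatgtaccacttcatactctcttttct

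Each of the 17 elements held the ZFP57 hexamer at least once, with 1 to 11 matches per element. Together they held 87 matches in 28436 bp, or 3.06 per kb. Over all regions of the lists the density was 0.274 per kb. In the 9299 CpG-rich regions over a start site (GC content of 50% or more and an observed over expected CpG ratio of 0.6 or more), a closer match in base composition, it was 0.836 per kb. Every element lay above that value, from 1.07 per kb at Zrsr1 to 9.23 per kb at the internal Inpp5f promoter. The other 30 member regions over a start site had 0.508 matches per kb. Elements were long, with a median width of 1635 bp, so windows of equal size were searched as well. In a 200 bp window centred on each element's widest peak, 7 of 17 elements held the hexamer, 41.2% with a 95% exact binomial interval of 18.4 to 67.1%. The same share was 19.8% in CpG-rich regions over a start site and 4.45% in all regions. The interval covers counting error only and takes in the CpG-rich value.

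**Figure D1:**
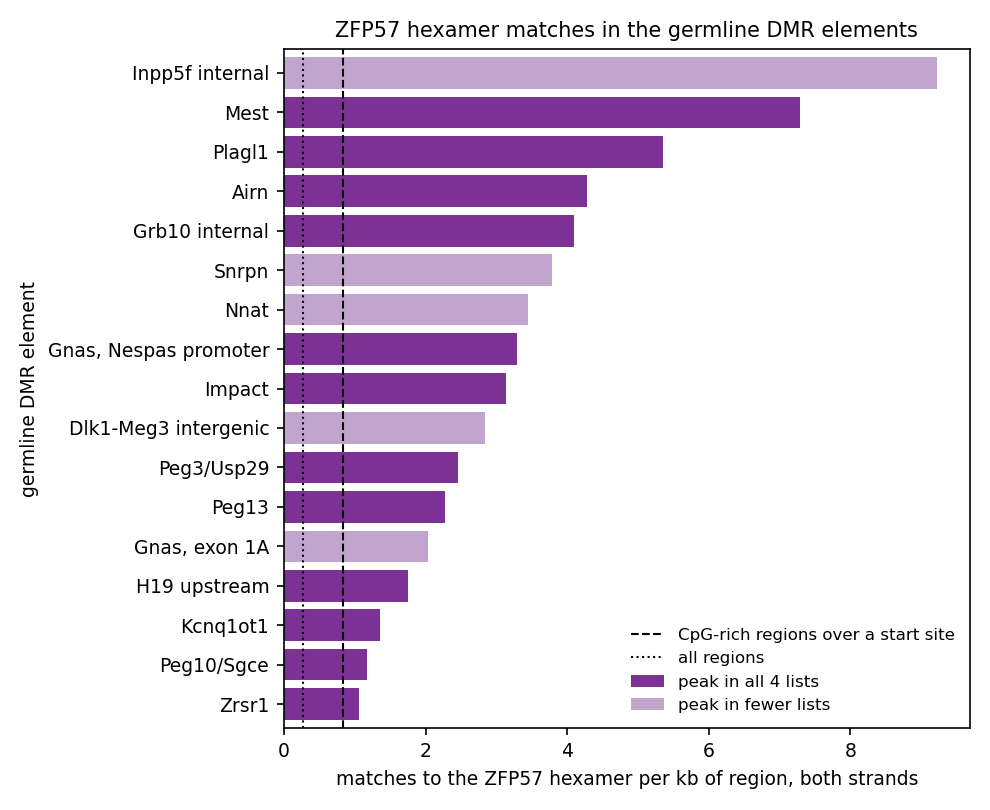
Matches to TGCCGC on either strand per kb of region (horizontal axis) in each of the 17 germline DMR elements (vertical axis). Dark bars are elements with a peak in all 4 lists and light bars those with fewer, the dashed line is the mean density of CpG-rich regions over a start site (0.836 per kb) and the dotted line that of all regions (0.274 per kb). All 17 bars end to the right of both lines.

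The CTCF site of the H19 element was rare. It was found in 34 of 101701 regions, 0.0334%, and among the 181 member regions in the H19 element alone, where it occurred at 2 places within the region chr7:142580291-142582008. The general CTCF consensus was found in 8 of the 181 member regions, 4.42%, near the 2.95% of all regions. No match says only that these letters were not in the searched window.

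A peak was listed at 17 of the 17 elements in MEF, 14 at OSKM day 5, 15 at OSKM day 10 and 15 in ESC. In all 4 lists a peak was present at 12 of them, where 13.8% of all regions had one in each list. Most elements lie over a start site, where peaks shared by all lists are common. Of the 15 elements over a start site of any gene, 11 were in all 4 lists, 73.3% (95% exact interval 44.9 to 92.2%), against 66.4% of all such regions. Of the 10 that were also CpG-rich, 8 were (44.4 to 97.5%), against 84.4%. Both intervals take in the background. These 12 were the elements of H19, Peg3 and Usp29, Peg10 and Sgce, Mest, Kcnq1ot1, Airn, Plagl1, Zrsr1, Impact, Peg13, the internal Grb10 promoter, and the Nespas promoter of the Gnas locus. The median fold enrichment of these peaks, over the elements that had one, was 3.05 in MEF, 3.08 at day 5, 3.24 at day 10 and 3.32 in ESC, below the medians of the whole lists (3.32, 3.72, 3.36 and 3.48). By the authors' score the medians were 59, 34, 44 and 48, below the list's median (47, 46, 43 and 39) at day 5 alone. The fold belongs to the whole peak of replicate 1, as the peak names show, so it describes each list and was not compared between groups. In each of the 12 elements some bases, 172 to 1928 bp, lay under a peak of every list.

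At the H19 element the fold was 3.10 in MEF, 2.62 at day 5, 2.77 at day 10 and 3.32 in ESC, and the listed peak covered 1718 bp in MEF and 276 bp in ESC. The element of Peg3, which encodes a paternally expressed zinc finger protein, spans chr7:6727232-6730484 over the gene's first part. Its fold was 2.67 in MEF, 3.08 at day 5, 2.93 at day 10 and 3.13 in ESC. Kcnq1ot1 is a long noncoding RNA that silences neighbouring genes in cis on the paternal copy, and its promoter element chr7:143295676-143297145 had folds of 3.19, 3.45, 3.29 and 3.86 in the same order of lists. The promoter of Airn, the noncoding antisense RNA of Igf2r, had folds of 2.77, 3.07, 3.40 and 3.09 (chr17:12740972-12742606). Among the 17 elements the largest ESC folds were those of the internal Grb10 promoter (5.04, chr11:12025641-12026615) and of Plagl1 (4.85, chr10:13090325-13091444), which encodes a zinc finger transcription factor. In the other lists the folds were 3.85 to 4.30 at Grb10 and 3.05 to 3.40 at Plagl1, and the lists were not compared by fold.

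The other 5 elements lacked a peak in 1 list or more. The Dlk1-Meg3 intergenic element, which controls the chromosome 12 cluster and lies 12569 bp upstream of Meg3 (chr12:109527375-109529488), had folds of 2.80 in MEF, 2.50 at day 10 and 2.53 in ESC, and no peak at day 5. Its MEF and day 10 peaks did not overlap and were joined into 1 region through the ESC peak, so no base was under a peak in all 3 lists, and the printed stretch was under the MEF and ESC peaks only. The internal promoter of Inpp5f, a gene for a phosphoinositide phosphatase, followed the same pattern (chr7:128687952-128688493). Snrpn, which encodes a spliceosomal protein, had a peak over its DMR (chr7:60002998-60005113) in MEF with a fold of 4.24, at day 5 with 3.23 and in ESC with 2.83, but none at day 10. Exon 1A of Gnas, the gene of the stimulatory G protein alpha subunit, had a peak in the 3 lists other than ESC (chr2:174327335-174327827). The DMR of Nnat, a neuronal membrane protein gene, had a peak in MEF only, with a fold of 2.50 (chr2:157559598-157561341). With lists cut to the shortest length it had a peak in no list. Where peaks were listed, the folds at the Dlk1-Meg3, Nnat and Gnas exon 1A elements were all between 2.50 and 2.80, and those at the internal Inpp5f promoter were 3.68, 4.29 and 4.22 in MEF, at day 10 and in ESC.

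**Figure D2:**
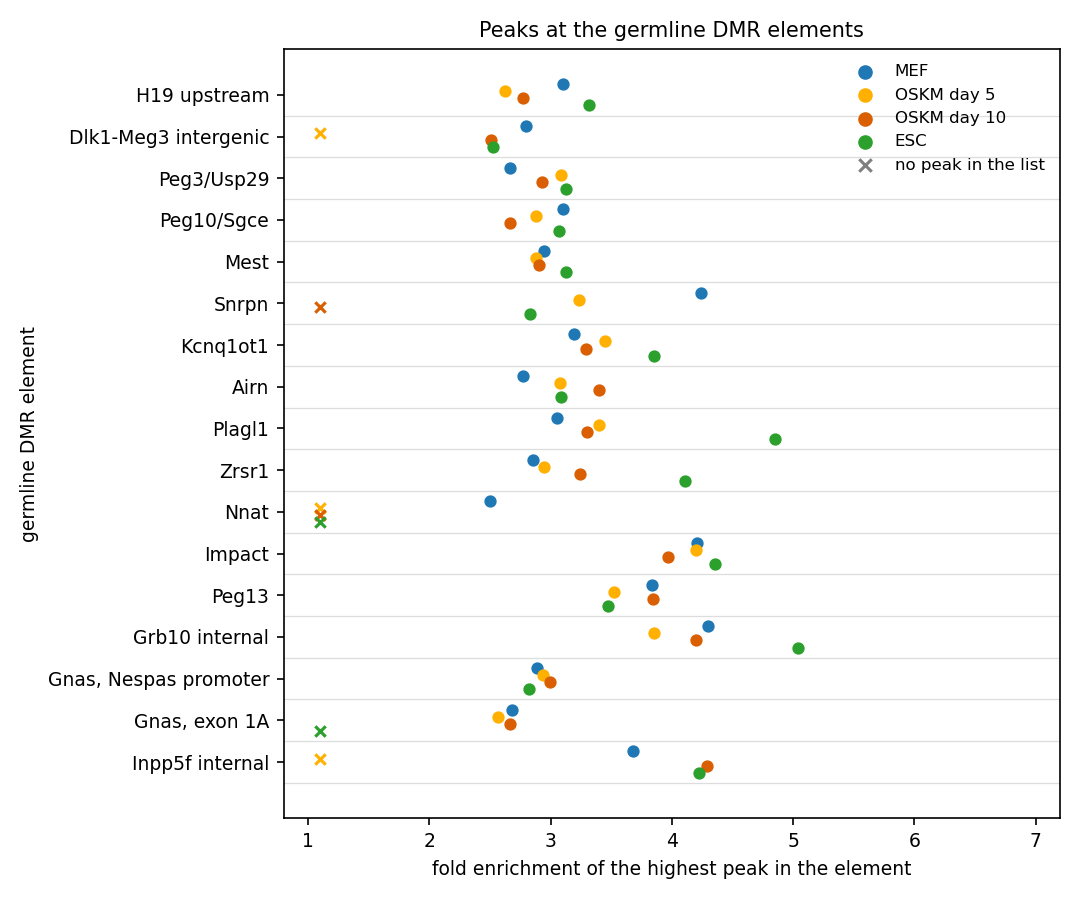
Fold enrichment of the highest peak (horizontal axis) at each of the 17 germline DMR elements (vertical axis), 1 point per peak list. Crosses at the left mark lists with no peak in the element. MEF has no cross, OSKM day 5 has 3, and OSKM day 10 and ESC have 2 each.

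A start site of 24 of the 34 genes lay under a peak in MEF, of 15 at OSKM day 5, of 20 at OSKM day 10 and of 20 in ESC. Over all annotated genes the shares were 29.0%, 24.2%, 26.4% and 26.7%. Over protein-coding genes they were 60.0%, 52.1%, 56.0% and 55.8%, and the 27 protein-coding members had 20, 12, 16 and 17. The members have more annotated start sites, with a median of 5.5 per gene against 1 for all genes and 3 for protein-coding genes. The part of this in the counts was not tested, and no excess of the members was read from them.

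In all 4 lists a start-site peak was present for 13 genes, where 21.2% of all genes and 46.8% of protein-coding genes had one. They were Airn, Impact, Kcnq1ot1, Mest, Peg10, Peg13, Plagl1, Gnas, Grb10, Inpp5f, Slc38a4, Trappc9 and Zim1. In no list was one present for H19, Mirg, Ndn, Rian, Rtl1 and Usp29. A peak came within 500 bp of a Usp29 start site in MEF and ESC. The MEF list had a start-site peak and the ESC list none at 8 genes, namely Cdkn1c, Igf2, Meg3, Phlda2, Nnat, Peg3, Sgce and Snrpn. Of these, Igf2, Peg3, Sgce and Snrpn had an ESC peak within 500 bp of a start site, whereas Cdkn1c, Meg3, Phlda2 and Nnat had not. The reverse held for Dio3, Dlk1, Kcnq1 and Mkrn3. Of all genes 4.93% had a start-site peak in MEF and not in ESC and 2.66% in ESC and not in MEF, and of protein-coding genes 7.75% and 3.54%, where 7 and 4 of the 27 protein-coding members did. No test was made of these counts. Igf2r and Zrsr1 lacked a start-site peak at day 5 only, and Magel2 lacked one at day 10 only. A day 5 peak came within 500 bp of a start site of both Igf2r and Zrsr1, whereas no day 10 peak did at Magel2.

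Genes whose germline DMR lies at their own promoter had a start-site peak in 12 of 13 cases in MEF, 8 at day 5, 9 at day 10 and 8 in ESC. Within 500 bp the counts became 13, 10, 9 and 12. Apart from Grb10, Gnas and Inpp5f, with a DMR at an internal promoter, the other 18 genes formed the distant-DMR group. That group is a remainder set from textbook knowledge, and control of each gene by a distant DMR was not shown. Its counts were 9, 4, 8 and 9. Of the 21 paternally expressed genes a start site lay under a peak in 15, 10, 11 and 13, and of the 11 maternally expressed genes in 7, 3, 7 and 5. Per gene the median number of annotated start sites was 6 in the promoter group, 4.5 in the distant group, 4 in the paternally and 7 in the maternally expressed group. Against the shares of 60.0%, 52.1%, 56.0% and 55.8% of protein-coding genes and 29.0%, 24.2%, 26.4% and 26.7% of all genes, these small groups were not tested, and no difference between them is read. Day 5 had the lowest count among the distant-DMR genes and in both parental groups, although the day 10 list is shorter than that of day 5. With lists cut to the shortest length, distant-DMR counts were 7 in MEF, 4 at day 5, 8 at day 10 and 7 in ESC. The parental groups were not recounted at that length, and a cause of the low day 5 counts was not tested.

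**Figure D3:**
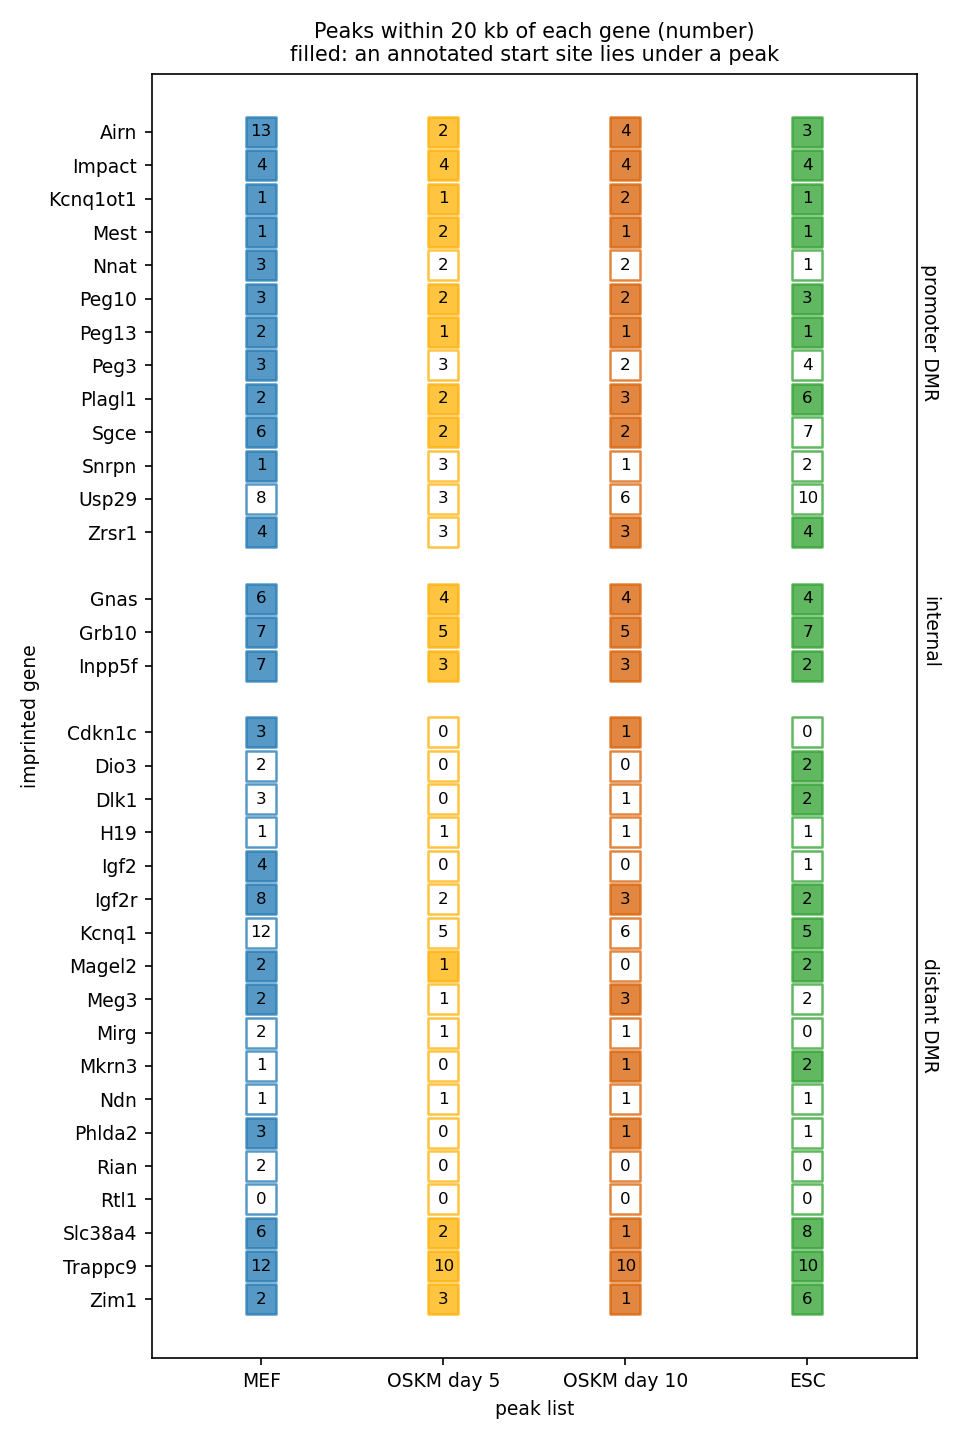
Number of peaks within 20 kb of each of the 34 imprinted genes (rows, by promoter, internal and distant DMR group as set in the text) in each peak list (columns). A filled square marks a gene with an annotated start site under a peak. Airn, Trappc9 and Kcnq1 hold the most MEF peaks (13, 12 and 12), Trappc9 and Usp29 the most ESC peaks (10 each), and Rtl1 has none in any list.

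The H19 and Igf2 pair is the best studied imprinted locus. H19 makes a maternally expressed noncoding RNA and Igf2 the paternally expressed insulin-like growth factor 2. The window of H19 held 1 peak in each list, always the upstream element. The window of Igf2 held 4 peaks in MEF, none on either OSKM day and 1 in ESC. The MEF peaks had folds of 1.98 to 3.30, and the one over an Igf2 start site lay at chr7:142655851-142656552 with 2.08. The single ESC peak had a fold of 2.58 and lay in a region that MEF shared. With every list held to its 35226 highest-scoring peaks, the length of the shortest list, Igf2 kept 1 peak in MEF and none in the other lists.

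The chromosome 12 cluster joins paternally expressed protein-coding genes (Dlk1, whose product resembles NOTCH ligands, Rtl1 and Dio3, a thyroid hormone deiodinase gene) with maternally expressed noncoding RNAs (Meg3, Rian and Mirg). The Meg3 promoter region chr12:109540587-109543391 had folds of 2.42 in MEF, 2.83 at day 10 and 3.90 in ESC and no peak at day 5. The ESC peak, 466 bp wide, lay inside that region but covered no Meg3 start site. Over Dlk1 and Dio3 start sites a peak was listed in ESC alone, with a fold of 2.55 at chr12:109453077-109453809 and 3.81 at chr12:110278868-110279233. Both of those regions were CpG-rich. Rian had 2 peaks in MEF and none in the other lists. Mirg had 2 in MEF, 1 on each OSKM day and none in ESC. Rtl1 was the only member without a peak in any list.

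In the locus of Peg3, Usp29 and Zim1 the ESC list was the longest. It held 15 peaks, against 10 in MEF, 6 at day 5 and 7 at day 10, and 8 of its 22 regions had a peak in ESC only and 4 in MEF only, where 24.1% and 29.5% of all regions had. At equal list length the counts were 10 in ESC and 6, 6 and 7 in the other lists in the same order. Usp29, a gene for a ubiquitin-specific protease, carried most of these. Zim1, a maternally expressed zinc finger gene, had a start-site region in all 4 lists (chr7:6696046-6696933) with folds of 4.27 in MEF, 3.60 at day 5, 4.40 at day 10 and 5.17 in ESC.

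The locus of Igf2r and Airn went the other way. MEF had 14 peaks there, day 5 had 2, day 10 had 4 and ESC had 3, and 9 of its 14 regions were listed in MEF only, where 29.5% of all regions were. At equal list length MEF had 11 and the other lists 2, 4 and 3. The 2 regions in all 4 lists were the promoters of Airn and of Igf2r, the receptor that clears insulin-like growth factor 2. The Igf2r promoter region chr17:12768584-12770045 had folds of 2.85, 3.20, 3.49 and 3.29. Kcnq1, Kcnq1ot1 and Cdkn1c share a locus that likewise had more MEF peaks, 14 against 5, 7 and 5, with 8 of 17 regions in MEF only. That order did not hold at equal list length, where MEF had 4, day 5 had 4, day 10 had 7 and ESC had 3. Cdkn1c encodes a cyclin-dependent kinase inhibitor and Phlda2 a regulator of placental growth. The regions over their start sites had peaks in MEF and at day 10 but not at day 5 or in ESC. The folds were 2.44 and 2.39 at Cdkn1c (chr7:143459495-143461156) and 2.88 and 2.69 at Phlda2 (chr7:143501676-143502938). Over a Kcnq1 start site a peak was listed in ESC alone, at chr7:143107205-143107392 with a fold of 3.18.

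Slc38a4, an amino acid transporter gene, had 6 peaks in MEF, 2 at day 5, 1 at day 10 and 8 in ESC. Its start-site region chr15:97054408-97056329 was in all 4 lists with folds of 3.37, 2.76, 2.90 and 3.44. Of the 12 regions of this locus 3 were in MEF only and 6 in ESC only, where 29.5% and 24.1% of all regions were. At equal list length MEF and ESC had 6 peaks each, day 5 had 2 and day 10 had 1. Peg13, a noncoding RNA, lies inside Trappc9, a gene for a subunit of a vesicle trafficking complex. Their locus had 12 peaks in MEF and 10 in each other list. At equal list length it had 6 in MEF, 9 at day 5, 10 at day 10 and 5 in ESC. It held 4 of the 8 regions listed on both OSKM days and in neither MEF nor ESC. These were named after their values were seen. Of the 4, the one with the highest folds was chr15:72660017-72660816, in the body of Trappc9, with 5.67 at day 5 and 5.26 at day 10. Another of the 8 was chr7:60047361-60048137 in the body of Snrpn, with 5.99 at day 5 and 3.01 at day 10. Regions of this kind made up 4.42% of member regions (95% exact interval 1.93 to 8.52%) and 6.85% of all regions.

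Peg10 and Sgce share a promoter, and the region over it (chr6:4746882-4749440) was in all 4 lists with folds of 3.10, 2.88, 2.66 and 3.07. Peg10 derives from a retrotransposon and Sgce encodes epsilon-sarcoglycan. A second region of all 4 lists, chr6:4738382-4740904, covered a start site of Sgce. Mest, a mesoderm-specific transcript, had its promoter region chr6:30736960-30738468 in all 4 lists with folds of 2.95, 2.88, 2.90 and 3.13. At Impact the same 4 regions were in each list, and no other member with more than 1 region had that.

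Ndn, Magel2 and Mkrn3 are paternally expressed genes of the Prader-Willi region. Ndn, which encodes the growth suppressor necdin, had 1 region 2126 bp downstream of its start in all 4 lists (chr7:62348169-62349221) with folds of 4.10, 4.05, 4.21 and 4.10, and no start-site peak. The Magel2 start-site region chr7:62376406-62377418 had folds of 3.42 in MEF, 3.01 at day 5 and 4.18 in ESC, and no peak at day 10. The Mkrn3 region chr7:62418817-62420259 had 3.35 at day 10 and 3.39 in ESC, and none in MEF or at day 5. Gnas had a region over start sites in all 4 lists (chr2:174329219-174330940), with folds of 2.86, 2.45, 2.49 and 2.38. The outermost Gnas start site had a peak in MEF only (chr2:174284181-174284755, fold 2.58). Zrsr1, a splicing factor gene, had folds of 2.85, 2.95, 3.24 and 4.11 over chr11:22971924-22973797.

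The member peak with the highest authors' score was the same promoter in 3 lists, that of Inpp5f (chr7:128610787-128612073). It scored 263 in MEF, 237 at day 5 and 267 at day 10, with folds of 5.16, 6.72 and 5.99, and ranked 752, 147 and 124 in those lists. In ESC the Peg3 element led, with a score of 155 and rank 1340. The Trappc9 promoter chr15:73060289-73061746 was in all 4 lists with folds of 4.63, 4.42, 4.04 and 4.07.

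Of the 181 member regions, 33 had a peak in all 4 lists, 18.2% (95% exact interval 12.9 to 24.6%), where 13.8% of all regions did. A single list held the peak at 105, or 58.0% (50.5 to 65.3%), where 62.9% of all regions did. These 105 were 58 in MEF only, 38 in ESC only, 6 at day 5 only and 3 at day 10 only, and 5.83% and 3.43% of all regions were at day 5 only and day 10 only. The shares of MEF-only and ESC-only regions were 32.0% and 21.0%, against 29.5% and 24.1% of all regions, and both intervals take in the background. Whether a region covered a start site of any gene divided the members much more. Of the 45 over a start site, 25 were in all 4 lists, 55.6% (40.0 to 70.4%), against 66.4% of all such regions. Of the 136 away from start sites, 8 were, 5.88% (2.57 to 11.3%), against 3.57%.

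Among CpG-rich regions over a start site, 17 of 27 member regions were in all 4 lists, 63.0% (42.4 to 80.6%), while 84.4% of the 9299 such regions were. A single list held 6 of the 27, 22.2% (8.62 to 42.3%), against 3.73%. Both intervals leave the background outside, but neighbouring regions of 1 locus are not independent and no test was made. The 6 were the start-site regions of Dlk1, Dio3, Kcnq1 and the pair Zim3 and Zfp264 near Usp29 in ESC, and of Gnas and Dio3os, antisense to Dio3, in MEF. The listed score was 13 at Dlk1, 15 at Zim3 and Zfp264 and 61 at Dio3, where the median of the ESC list was 39. It was 17 at Dio3os and 20 at Gnas, where the MEF median was 47. The share in 1 list was not recounted under stricter settings, for these regions or for their background. At equal list length, however, the loci of Dlk1 and of Kcnq1 held 0 regions in ESC only, and that of Gnas 0 in MEF only. The Dio3 locus kept 1 region in ESC only and 1 in MEF only. Most of the 6 thus rested on peaks that the shorter lists did not hold. Member regions in all 4 lists had a median width of 1462 bp and those in 1 list 514 bp, against 1335 and 513 bp over all regions.

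**Figure D4:**
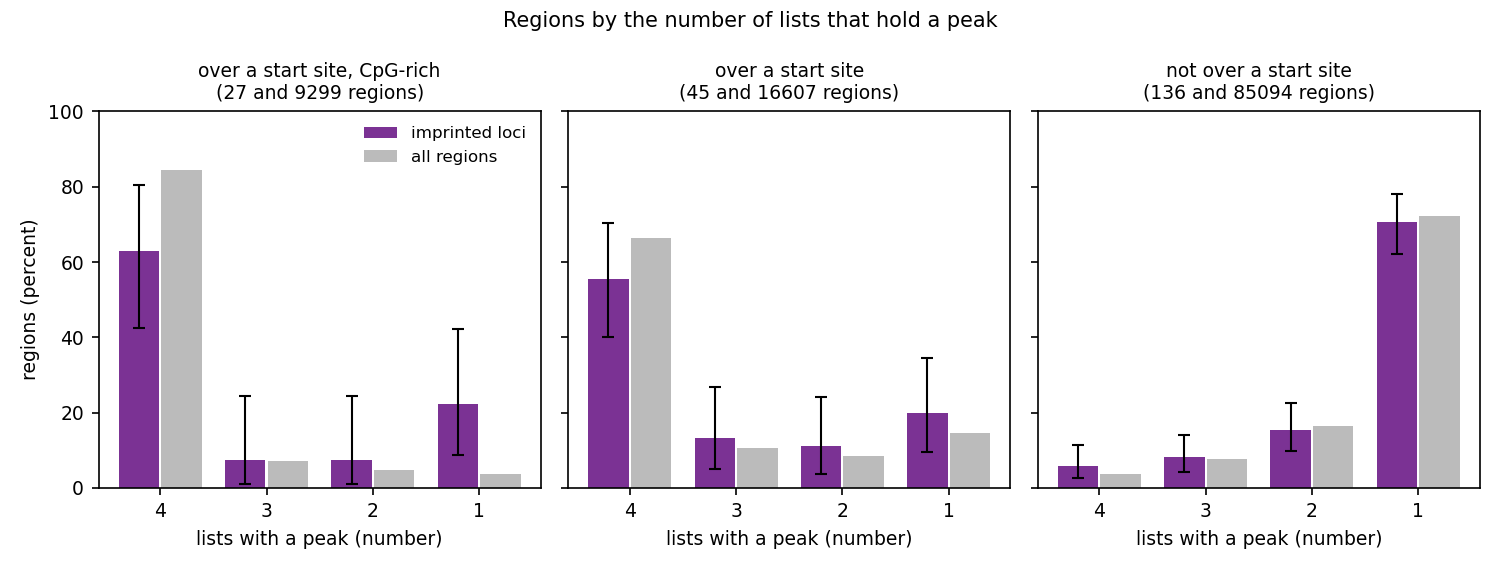
Share of regions (vertical axis, percent) by the number of lists with a peak (horizontal axis), for member regions (purple, with 95% exact binomial intervals for counting error) and all regions (grey). Panels from left to right show CpG-rich regions over a start site, all regions over a start site and regions away from start sites. The member share in all 4 lists is below the grey bar among CpG-rich start-site regions (63.0% against 84.4%).

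Member windows covered 3.17 Mb in 23 merged loci, and 18 of the genes shared 7 of these, so that 20 regions counted at more than 1 gene. They held 37.9 peaks per Mb in MEF, 18.9 at day 5, 20.8 at day 10 and 29.4 in ESC, and the windows of all genes held 25.3 per Mb in MEF, 16.02 at day 5, 16.3 at day 10 and 22.0 in ESC. MEF was the highest and ESC next in both, as in the lengths of the lists. At equal list length member peaks numbered 73 in MEF, 57 at day 5, 66 at day 10 and 65 in ESC, so ESC no longer came next. A peak was missing from the window of 1 gene in MEF, 8 at day 5, 5 at day 10 and 4 in ESC. Median folds of member peaks were 3.12, 3.33, 3.23 and 3.37.

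A further 32 imprinted genes, listed with earlier results of these data known, had a start-site peak in 20 cases in MEF, 17 at day 5, 16 at day 10 and 22 in ESC, where the shares were 60.0%, 52.1%, 56.0% and 55.8% of protein-coding genes and 29.0%, 24.2%, 26.4% and 26.7% of all genes. Of 14 genes listed for imprint maintenance, 12 had one in MEF and 11 in each other list. Besides methylation genes, the 14 take in Ctcf and the DNA demethylation genes Tet1, Tet2 and Tet3, each with one in all 4 lists. Zfp57 and Trim28, which encode the hexamer-binding protein and its corepressor, and Dnmt1 and Uhrf1, which encode the maintenance methyltransferase and its partner, had one in all 4 lists. Dppa3 and Dnmt3l had none, and the de novo methyltransferase gene Dnmt3a had one in MEF only.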

How the data were processed

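Per the labels, the authors mapped reads to mm10 with bowtie2 (Bowtie2 2.2.0 in the submitters' processing notes) in its very sensitive mode, keeping unique reads outside the mitochondrial genome. The study's methods give another bowtie2 version, and differ from the labels in the mapping quality threshold. The peak caller was not given in the sources used here. The authors deposited 1 list per group with a score, a fold enrichment (a ratio), and −log10 p-value and −log10 q-value columns. Names are those of replicate 1 peaks and some recur (80 to 406 per list), so intervals look like parts shared with replicate 2. Read depth is unknown.

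Overlap needed 1 bp. Genes and start sites came from GENCODE release 21 and sequence from GRCm38.p6. Intervals are 95% exact binomial (scipy 1.17.1). Overlap, merging and motif counting were tested on simulated data. The members and lists were chosen with earlier results of these data known. Regions named are, for each member, the one over a start site with the most peak bases, those over a start site in 1 list, and the top score per list. The DMR elements, the Ndn region, the second Sgce region and the regions of the OSKM days were added after values were seen. Strictness, window, merging and list length were varied. No column was left unmapped (0 columns).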

Additional observations from a re-analysis of the deposited data

How the results depend on the processing

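No paired analysis was possible because each group was deposited as 1 list, although the labels number its libraries. For the same reason no library could be left out in turn. Of 173 alternative values, 141 stayed within 1.5 times the count or within the interval of the share, and 32 moved, 22 of them among the 92 peak counts of single loci at equal list length, an alternative chosen after seeing the data. With lists cut to the 35226 highest-scoring peaks, member peaks in MEF fell from 120 to 73 and in ESC from 93 to 65, below the 66 of day 10, and the share of member regions in 1 list was 48.8%, where the background also fell, to 57.2%. With the outermost start site alone, ESC start-site peaks fell from 20 to 13 genes. Against protein-coding genes the background of start-site peaks was 60.0%, 52.1%, 56.0% and 55.8%. In 200 bp windows the shares of member regions with the H19 CTCF site, the general CTCF consensus and the ZFP57 hexamer were 0%, 0.552% and 8.29%, since less sequence is searched. The share in all 4 lists ran from 17.8 to 21.3% over the settings. The 12 DMR elements of all 4 lists became 11 at a −log10 q-value of 2 or more and 12 at equal list length, alternatives chosen after seeing the data.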

Other observations

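Other recognition letters were counted in the member regions after their values were seen. TGANTCA, which takes in the site of AP-1, a factor family active in fibroblasts, was found in 22 of the 58 member regions listed in MEF only, 37.9% (95% exact interval 25.5 to 51.6%), and in 58.0% of all MEF-only regions. In the 38 member regions listed in ESC only it was found in 3, 7.89% (1.66 to 21.4%), against 3929 of all 24510 ESC-only regions. In 200 bp windows the MEF-only shares were 24.1% (13.9 to 37.2%) and 31.1%, and there the interval takes in the background. ATGCAAAT, the octamer bound by OCT4, was found in 1 of the 8 member regions of both OSKM days only and in 11.5% of all such regions. TCAAGGTCA, bound by ESRRB, was found in none of the 181, where 2.44% of all regions held it, and 0 of 181 allows a share of up to 2.02% by the exact interval. In 200 bp windows no member region held it either, against 0.681% of all regions, and there the interval takes in the background.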
